A study of Homo sapiens with 22 samples.

Results

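The subject here is 10 chemokine genes, *CCL2*, *CCL3*, *CCL5*, *CCL20*, *CXCL1*, *CXCL2*, *CXCL3*, *CXCL5*, *CXCL8* and *CXCL12*, out of the 35237 gene rows of one RNA-seq count table. They were picked by symbol. The choice used measured values, because *CCL3* and *CCL20* were the largest rises of SK-N-AS cells after 30 days of treatment, so the change of these genes between untreated and 30-day SK-N-AS cells is described below without a test. Of the 10 genes, 9 passed the low-count filter in SK-N-AS and 3 passed it in GIMEN. For several genes only the groups where they were high let them through the filter.

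SK-N-AS and GIMEN are established human neuroblastoma lines, which the labels call MES lines. PP121 is a small-molecule inhibitor of tyrosine kinases and phosphoinositide kinases, and bufalin is a cardiac glycoside that blocks the sodium-potassium pump. Untreated SK-N-AS (n = 4 libraries) was kept in DMEM with 10% fetal bovine serum (FBS). The S1D4 group (n = 4) had 4 days of 5 µM PP121 in DMEM with 1% FBS. The S2D4 and S2D30 groups (n = 4 each) came from S1D4 cells that then received 5 µM PP121 and 100 nM bufalin for 4 or 30 days in Neurobasal medium with B27 and no listed serum. Untreated GIMEN (n = 3) was kept in RPMI with 10% FBS, and GIMEN D30 (n = 3) had 2.5 µM PP121 and 10 nM bufalin in RPMI with 1% FBS for 30 days. Each treated group also differed from its untreated group in serum, and stage 2 in basal medium, so drug and medium cannot be told apart. Nothing states that the libraries of a group came from separate cultures, so p-values measure only the spread between these libraries, which may be technical.

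Chemokines are small secreted proteins that direct cell migration through G-protein-coupled receptors. CXCL1, CXCL2, CXCL3, CXCL5 and CXCL8 carry a glutamate-leucine-arginine (ELR) motif, bind CXCR2 (CXCL8 also CXCR1) and are best known for recruiting neutrophils. CCL2 recruits monocytes through CCR2, CCL3 and CCL5 act on receptors that include CCR1, and CCL20 attracts lymphocytes and dendritic cells through CCR6. Many of these genes are textbook targets of NF-kappa-B and AP-1 and are induced by inflammatory cytokines. CXCL12 is mostly a homeostatic chemokine made by stromal cells, with CXCR4 as its signalling receptor and ACKR3 as its scavenging receptor.

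Libraries held 16456484 to 37506800 counts. Levels are given as CPM, counts scaled to a common library total, after 1 scaling of all 22 libraries. One library stood apart: S2D4 replicate 4 correlated at 0.967 to 0.969 with the other S2D4 libraries (Pearson r of log2 CPM across genes), which correlated at 0.990 with each other. It had 3930 CPM of *CHGA* (chromogranin A, a secretory granule protein of adrenergic cells) against 483 to 584 in the other S2D4 libraries. It also had 25.0 CPM of *TH*, tyrosine hydroxylase, against 0.706 to 1.21. In untreated and S1D4 cells, replicates 1 and 2 differed from replicates 3 and 4, and the log2 differences of the 2 groups had a Pearson correlation of 0.406 across 16610 genes. The labels give no batch for this. Of 12 white blood cell genes, *CD3E* and *MS4A1* were at 0 in every SK-N-AS library, and the list summed to 171 to 216 CPM in untreated cells and 104 to 156 CPM in S2D30. Most of that was *PTPRC* (CD45), at 158 to 207 CPM untreated and 0.526 to 1.36 in S2D30, and *CD68*, a lysosomal protein, at 8.06 to 17.1 and 94.1 to 147 CPM. The remaining genes summed to 1.56 to 2.84 and 5.99 to 9.51 CPM. The part of such cells in the results was not tested. In bulk RNA, fewer cells expressing a gene and less RNA per cell cannot be told apart.

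The bases just before the annotated start of 7 members are shown because the ELR genes and *CCL20* are textbook NF-kappa-B targets, with *CXCL12* for contrast. Sequences are RefSeq's on GRCh38.p14 and run 5′ to 3′ on the gene's strand, from 150 bases before the start to the base before it. Capitals mark matches to the kappa-B consensus or its core GGAATTTCC.
CXCL8: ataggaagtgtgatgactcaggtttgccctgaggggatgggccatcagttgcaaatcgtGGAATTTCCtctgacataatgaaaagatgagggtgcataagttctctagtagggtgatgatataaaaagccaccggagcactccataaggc
CXCL5: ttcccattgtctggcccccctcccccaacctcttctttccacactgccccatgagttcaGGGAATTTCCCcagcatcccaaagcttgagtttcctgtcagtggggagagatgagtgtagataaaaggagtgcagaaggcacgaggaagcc
CXCL1: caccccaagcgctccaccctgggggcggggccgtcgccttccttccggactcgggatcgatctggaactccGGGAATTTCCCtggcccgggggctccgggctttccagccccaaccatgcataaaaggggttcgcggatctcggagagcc
CXCL2: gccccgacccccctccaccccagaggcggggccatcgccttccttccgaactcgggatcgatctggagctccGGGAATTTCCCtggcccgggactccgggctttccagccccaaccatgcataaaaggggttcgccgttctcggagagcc
CXCL3: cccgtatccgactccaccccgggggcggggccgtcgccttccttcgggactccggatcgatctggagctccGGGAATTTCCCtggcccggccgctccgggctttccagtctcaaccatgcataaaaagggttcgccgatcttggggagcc
CCL20: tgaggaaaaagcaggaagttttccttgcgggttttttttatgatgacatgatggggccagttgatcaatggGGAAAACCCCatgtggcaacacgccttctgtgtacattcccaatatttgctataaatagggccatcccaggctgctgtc
CXCL12: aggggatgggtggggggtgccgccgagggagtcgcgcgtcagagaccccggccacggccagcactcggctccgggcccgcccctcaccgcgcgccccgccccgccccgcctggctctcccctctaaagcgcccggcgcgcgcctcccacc

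These stretches lie at chr4:73740419-73740568 (*CXCL8*, plus strand), chr4:73998678-73998827 (*CXCL5*, minus), chr4:73869243-73869392 (*CXCL1*, plus), chr4:74099196-74099345 (*CXCL2*, minus), chr4:74038690-74038839 (*CXCL3*, minus), chr2:227813692-227813841 (*CCL20*, plus) and chr10:44385098-44385247 (*CXCL12*, minus). The core GGAATTTCC, searched on both strands in the 250 bases before the start, was present in all 5 ELR genes. It begins 91 bases before the start in *CXCL8*, 90 in *CXCL5*, 78 in *CXCL1* and *CXCL3* and 77 in *CXCL2*. Of 35116 promoter windows of the same length, 0.413% held it. The 10-letter kappa-B consensus, which overlaps the core, was matched in *CXCL1*, *CXCL2*, *CXCL3*, *CXCL5* and *CCL20* and in 5.2% of windows. The AP-1 letters TGANTCA were found in *CXCL8* (6.6% of windows), and TATAAA in *CXCL8*, *CCL20* and *CCL3* (10.7%). *CXCL12* held none of the 4 motifs. *CCL3*, which also rose and is not shown above, had 3 windows with no match to the kappa-B core or consensus. Of the 10 members, 8 had a window, all but *CCL2* and *CCL5*. A match is a description of the letters, not of factor binding. Of 23 other chemokine ligands with a window, *CXCL6*, *CXCL10* and *CXCL11* held the core.

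*CXCL8*, the neutrophil chemokine interleukin 8, had the highest mean level of the 10 genes in every treated group but S1D4. Its CPM in untreated SK-N-AS replicates 1 to 4 was 0.445, 0.219, 0.0954 and 0.214. In S1D4 it was 39.7, 39.1, 11.3 and 11.7, in S2D4 205, 194, 180 and 87.0, and in S2D30 1770, 1890, 2020 and 1670. The 4 groups do not overlap, and each step was higher than the one before it. *CXCL8* rose by 6.51 ± 0.57 log2 (SE) in S1D4 against untreated cells (edgeR quasi-likelihood test, Benjamini-Hochberg adjusted p = 3.94e-07). It rose a further 2.70 ± 0.38 from S1D4 to S2D4 (adjusted p = 1.65e-05, edgeR) and 3.46 ± 0.39 from S2D4 to S2D30 (adjusted p = 1.58e-06, edgeR). S1D4 replicates 1 and 2 averaged 3.44 times replicates 3 and 4, and this difference within the group passed the test (adjusted p = 0.0106, edgeR). Within replicates 1 and 2 the S1D4 rise was 6.72, and within replicates 3 and 4 it was 6.05. Untreated cells had only 32 counts of *CXCL8* over 4 libraries, against 160163 in S2D30. Only 1 untreated library reached the cutoff of the low-count filter, against all 4 of each treated group. *CXCL8* thus entered the test against untreated cells through the groups where it was high, so that call is no support of its own. The S2D30 libraries belong to the contrast that chose *CCL3* and *CCL20*, so the last step is no independent support either.

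*CXCL5*, which attracts and activates neutrophils, rested on few counts until stage 2. Untreated libraries had 0.0247, 0.0874, 0 and 0.0611 CPM and S1D4 libraries 0.442, 0.8, 0.337 and 0.222. In S2D4 the values were 22.7, 25.6, 23.4 and 0.292, so replicate 4 lay among the S1D4 libraries and the other replicates far above them. S2D30 had 123, 119, 110 and 92.2 CPM. *CXCL5* did not pass edgeR's test in S1D4 (adjusted p = 0.190) but passed with DESeq2 (adjusted p = 0.00711), although all 4 S1D4 libraries were above the untreated ones. It rose 35.9-fold from S1D4 to S2D4 by summed counts (95% counting interval 26.3 to 50.2, adjusted p = 5.69e-05, edgeR) and by 2.64 ± 0.60 log2 from S2D4 to S2D30 (adjusted p = 0.00156, edgeR). *CXCL5* passed the filter only with the stage 2 libraries, where it was high, so these calls are no support of their own. Without S2D4 replicate 4 the last step was 2.21 log2 and the step before it 5.72 log2, against 5.30 with it.

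*CXCL1*, *CXCL2* and *CXCL3* encode closely related neutrophil chemokines, and all had at most 7 counts per library before stage 2. *CXCL2* was at 0 to 0.0611 CPM in untreated cells and 0.0402 to 0.33 in S1D4. It reached 3.49, 2.44, 2.82 and 0.745 CPM in S2D4 and 48.0, 50.2, 51.7 and 36.1 in S2D30. *CXCL1* was at 0 to 0.0495 CPM in untreated cells and at 0 in all but 1 S1D4 library. It had 0.373, 0.434, 0.659 and 0.0972 CPM in S2D4 and 4.74, 3.89, 3.26 and 2.13 in S2D30. *CXCL3* was at 0 in 3 of 4 untreated libraries, at 0 to 0.127 CPM in S1D4, at 1.02, 1.41, 0.8 and 0.0648 in S2D4, and at 4.91, 5.58, 4.53 and 3.78 in S2D30. None of the 3 passed edgeR's test in S1D4, while DESeq2 called *CXCL2* (adjusted p = 0.0318). In these 3 genes S2D30 lay above every other SK-N-AS library.

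From S1D4 to S2D4, *CXCL2* rose 13.6-fold by summed counts (counting interval 8.05 to 24.7, adjusted p = 1.43e-05, edgeR). *CXCL3* rose 13.5-fold (5.49 to 42.8, adjusted p = 0.00118, edgeR) and *CXCL1* 33.1-fold on a single S1D4 count (5.55 to 1350, adjusted p = 0.000484, edgeR). Those intervals cover counting error only. From S2D4 to S2D30 the log2 rises were 4.32 ± 0.35 for *CXCL2*, 3.20 ± 0.48 for *CXCL1* and 2.55 ± 0.55 for *CXCL3* (adjusted p = 5.09e-08, 3.69e-05 and 0.000998, edgeR). These 3 genes entered the tests only through S2D4 and S2D30, where they were high, so their calls are no support of their own. Leaving out S1D4 replicate 2, the library with the *CXCL1* count, moved the fitted S1D4 to S2D4 change of *CXCL1* from 4.57 to 6.22 log2, and leaving out S1D4 replicate 3 moved that of *CXCL3* from 3.75 to 4.53. Against untreated cells, leaving out untreated replicate 1 moved the S2D4 change from 3.62 to 4.37 for *CXCL1* and from 4.71 to 7.22 for *CXCL3*, both called either way. For *CXCL3*, S2D4 replicate 4 overlapped S1D4. In GENCODE 29 transcripts, 7.1% of the 75-base words of *CXCL2* also occur in *CXCL1* or *CXCL3*, and 4.6% of those of *CXCL3* in *CXCL2*. The counting rules are not given in the sources used here, so a small part of these counts may belong to the paralog.

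**Figure D1:**
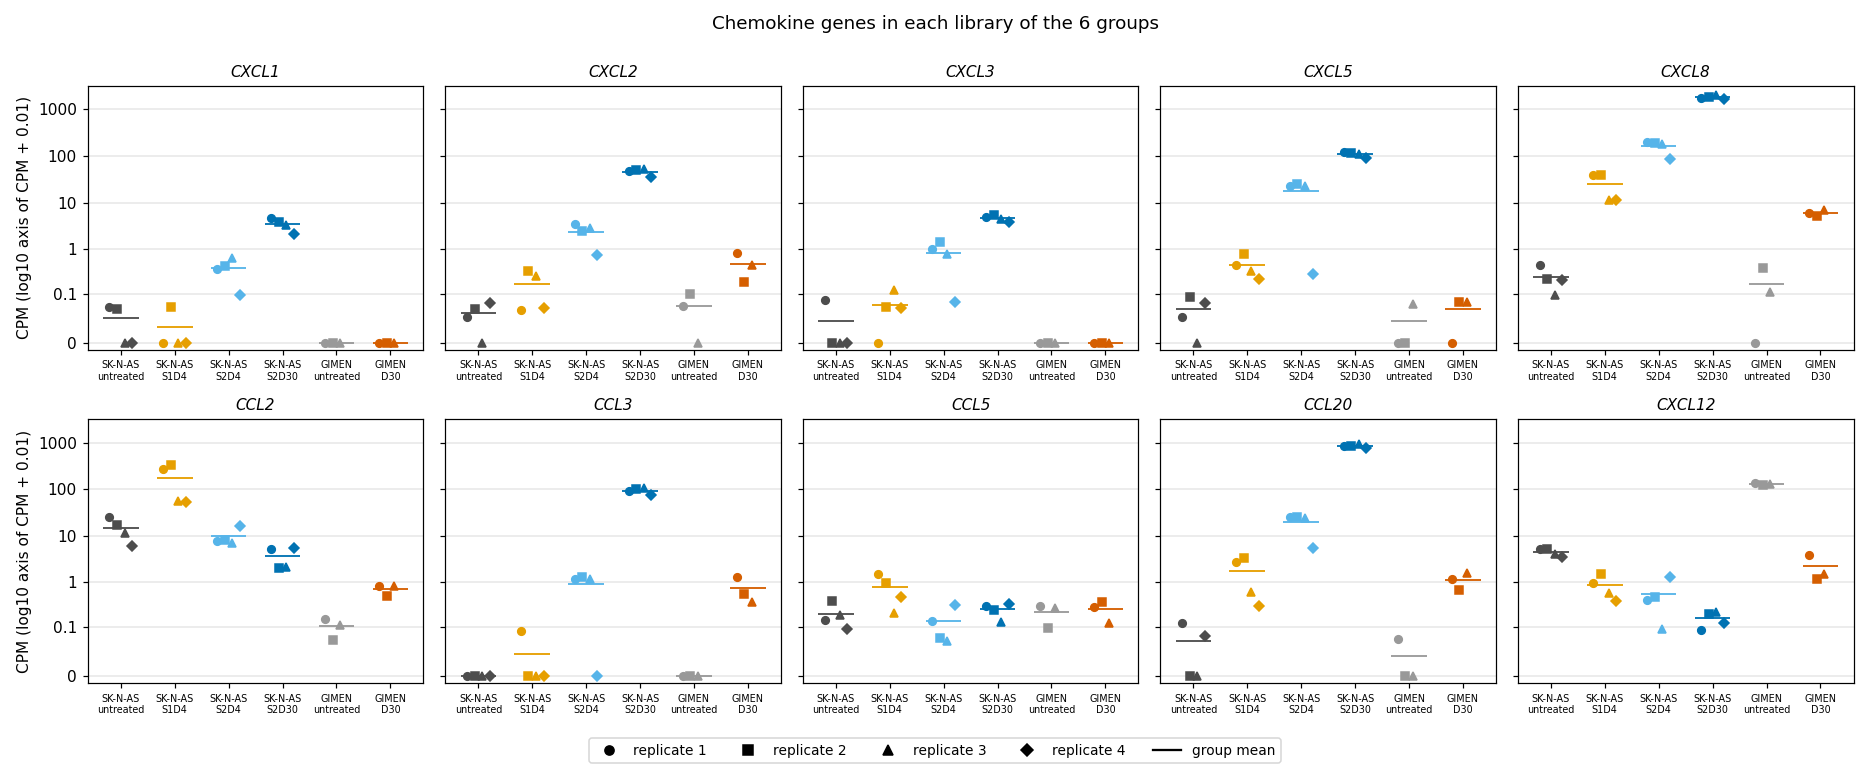
CPM of the 10 chemokine genes in each library of the 6 groups, on a log10 axis of CPM + 0.01. Symbols are replicates and horizontal lines are group means. In SK-N-AS, *CXCL8* reaches 1670 to 2020 CPM and *CCL20* 769 to 955 CPM in S2D30, while *CXCL12* is highest in untreated GIMEN at 125 to 134 CPM.

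The 5 ELR genes lie in one cluster on chromosome 4, but their neighbours did not all share the pattern. In gene order the cluster runs *CXCL8*, *CXCL6*, *PF4V1*, *CXCL1*, *PF4*, *PPBP*, *CXCL5*, *CXCL3*, *CXCL2*. *CXCL6*, another ELR chemokine whose promoter window holds the same core, had at most 1 count in any SK-N-AS library. *PF4* and *PF4V1*, platelet factor 4 and its variant, were at 0 in every library. *PPBP*, a platelet chemokine, had 0 to 6 counts in S2D30 and 0 in the other groups. Beyond *CXCL2* and *MTHFD2L*, the epidermal growth factor receptor ligands *EREG* and *AREG* also rose at both steps of stage 2 (named after their values were seen). *EREG* had 0.175 to 0.366 CPM in untreated cells, 0.710 to 1.21 in S1D4, 6.48 to 27.9 in S2D4 and 104 to 119 in S2D30, and rose by 4.52 ± 0.38 log2 from S1D4 to S2D4 (adjusted p = 6.24e-08, edgeR). *AREG* rose by 4.61 ± 0.55 log2 at the same step (adjusted p = 3.04e-06, edgeR). *AREG* had 0 to 8 counts per library before stage 2 and passed the filter only through S2D4 and S2D30. It was high there, so this call is no support of its own. *MTHFD2L*, a mitochondrial folate enzyme whose gene lies between *CXCL2* and *EREG*, ranged from 8 to 18.5 CPM over all SK-N-AS libraries. It rose by 0.49 ± 0.14 log2 from S1D4 to S2D4 (adjusted p = 0.00664, edgeR).

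**Figure D2:**
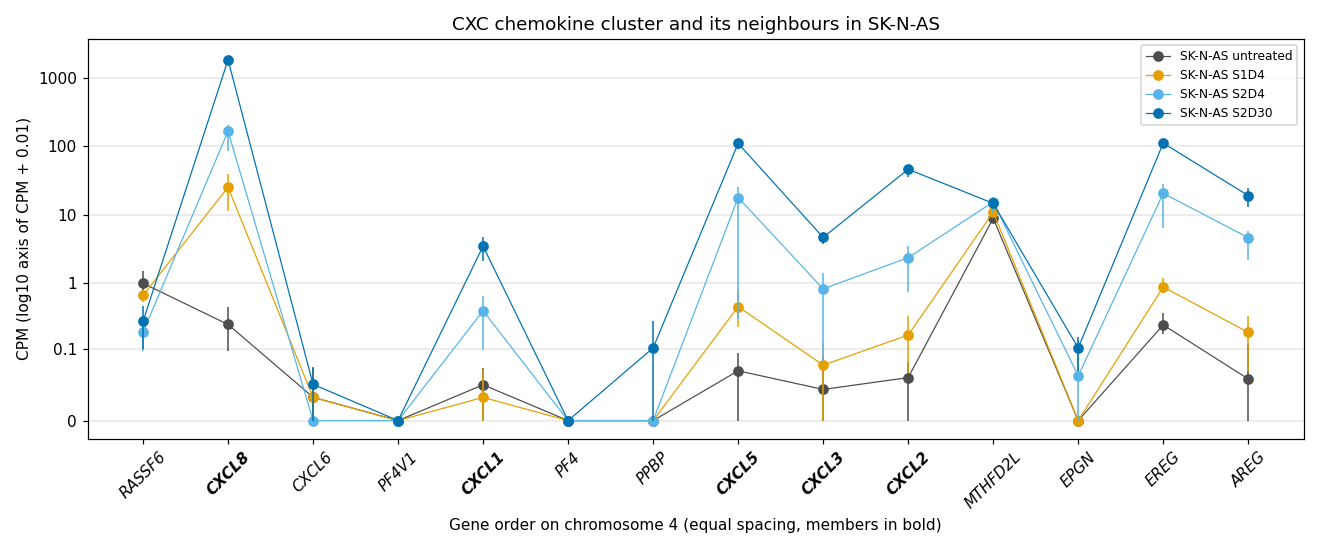
Mean CPM (points) and range over 4 libraries (vertical lines) of the genes of the CXC cluster on chromosome 4 and its neighbours in the 4 SK-N-AS groups, in gene order with equal spacing, on a log10 axis of CPM + 0.01. *CXCL8*, *CXCL5*, *CXCL2*, *EREG* and *AREG* climb over the stages, *CXCL6*, *PF4V1* and *PF4* stay at or near 0, and *MTHFD2L* keeps within 8 to 18.5 CPM.

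*CCL20*, the CCR6 ligand, was almost unread in untreated SK-N-AS, with 0.124, 0, 0 and 0.0611 CPM (7 counts in all). It had 2.77, 3.44, 0.633 and 0.310 CPM in S1D4 and 25.3, 25.3, 24.4 and 5.51 in S2D4. In S2D30 it had 859, 851, 955 and 769 CPM, the second highest level of the 10 genes. The 4 groups do not overlap. By summed counts *CCL20* was 29.7-fold higher in S1D4 than in untreated cells (counting interval 14.1 to 75), with an adjusted p of 0.00200 (edgeR). The untreated libraries are those of the contrast that chose *CCL20*, so this p and those against untreated cells below are no independent support. It was under the threshold within replicates 1 and 2 (5.18 log2, adjusted p = 0.00238, edgeR) but not within replicates 3 and 4 (3.497 log2, adjusted p = 0.170, edgeR). Leaving out untreated replicate 1, which held 5 of the 7 counts, moved the fitted S1D4 change from 4.77 to 5.83 log2 and that of S2D4 against untreated cells from 8.25 to 9.32. From S1D4 to S2D4 *CCL20* rose by 3.48 ± 0.52 log2 (adjusted p = 3.07e-05, edgeR). *CCL20* needed the stage 2 libraries, where it was high, to pass the filter, so this call is no support of its own. The step from S2D4 to S2D30 helped choose this gene and is given without a test: 5.42 log2, with every S2D30 library above every S2D4 library.

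*CCL3*, macrophage inflammatory protein 1-alpha, had no count in the 4 untreated SK-N-AS libraries and 2 counts in S1D4, both in replicate 1. In S2D4 it had 1.21, 1.30, 1.22 and 0 CPM, and in S2D30 92.5, 102, 108 and 74.2. S2D4 replicate 4 had no count at its depth of 34292076, which allows up to 3. By summed counts *CCL3* was 38.2-fold higher in S2D4 than in S1D4 (counting interval 10.2 to 321, adjusted p = 0.00244, edgeR), although the libraries of the groups overlap through replicate 4. *CCL3* passed the filter only through S2D4 and S2D30, where it was high, so this call is no support of its own. Leaving out S1D4 replicate 1 moved the fitted change from 5.02 to 7.40 log2. Against untreated cells S2D4 was at least 8.49-fold higher, taking 3 counts per untreated library as the floor. This ratio uses the untreated libraries of the contrast that chose the gene and is a description.

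Of the exon bases of *CCL3* in GENCODE 29, 74.6% lie opposite exons of the long non-coding gene AC243829.4, and whether counting used strand is not given in the sources used here. The near-identical copies *CCL3L1* and *CCL3L3* have rows of their own. Over the S2D30 libraries these ran from 200 to 317 and from 861 to 1304 counts, beside 1707 to 2383 for *CCL3*, and in S2D4 from 0 to 1 and from 0 to 6. The close relative *CCL4* had 0 to 2 counts in every SK-N-AS library.

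*CCL2*, the monocyte chemoattractant MCP-1, went the other way at stage 2. It was the highest of the 10 genes in untreated SK-N-AS, at 25.3, 17.6, 11.9 and 6.17 CPM. S1D4 had 271, 327, 55.3 and 52.7 CPM, S2D4 7.92, 8.09, 7.06 and 16.8, and S2D30 5.26, 2.05, 2.17 and 5.52. S1D4 lay above the other SK-N-AS groups, S2D4 overlapped untreated cells, and S2D30 lay below both. *CCL2* rose by 3.496 ± 0.60 log2 in S1D4 (adjusted p = 0.000235, edgeR) and fell by 4.14 ± 0.63 from S1D4 to S2D4 (adjusted p = 3.49e-05, edgeR). The change from S2D4 to S2D30 was -1.41 ± 0.63 log2 and missed the threshold (adjusted p = 0.0730, edgeR). It passed in a model of the 2 groups alone (-1.395, adjusted p = 0.0166, edgeR).

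The size of the *CCL2* rise in S1D4 depended on the replicates. Replicates 1 and 2 averaged 299 CPM and replicates 3 and 4 54.0 CPM, a ratio of 5.54 that passed the test within the group (adjusted p = 0.0156, edgeR). The rise was 3.76 log2 within replicates 1 and 2 and 2.58 within replicates 3 and 4, and passed in both (adjusted p = 7.96e-05 and 0.00101, edgeR). The same pair of replicates was higher in untreated cells, by 2.38 times. Other genes of the lists had the same pair high in S1D4 (these 4 were named after their values were seen). *CCL7*, the neighbouring monocyte chemokine MCP-3, had 3.05, 4.57, 0.675 and 0.843 CPM. *CXCL10*, an interferon-inducible T-cell chemokine, had 3.05, 4.66, 0.422 and 0.177. *TNF* was 7 times and *CX3CL1* 3.49 times as high in replicates 1 and 2 as in 3 and 4. S1D4 was the highest group for *CCL7*, *CXCL10* and *CX3CL1* too.

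*CCL5* (RANTES, a T-cell and monocyte chemokine) did not pass the filter in SK-N-AS. It had 3 to 9 counts in untreated libraries, 37, 21, 5 and 11 counts in S1D4, and 1 to 10 counts in stage 2. Its CPM in S1D4 was 1.49, 0.989, 0.211 and 0.488, overlapping the untreated range of 0.0916 to 0.393. Without the filter the S1D4 difference passed (1.98 log2, adjusted p = 0.02195, edgeR), and so did the difference of S2D4 from S1D4 (-2.33 log2, adjusted p = 0.00662, edgeR). Within replicates 3 and 4 the S1D4 difference was 1.33 log2 and did not pass (adjusted p = 0.266, edgeR). Of its 75-base words, 7.9% occur in transcripts of other genes.

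**Figure D3:**
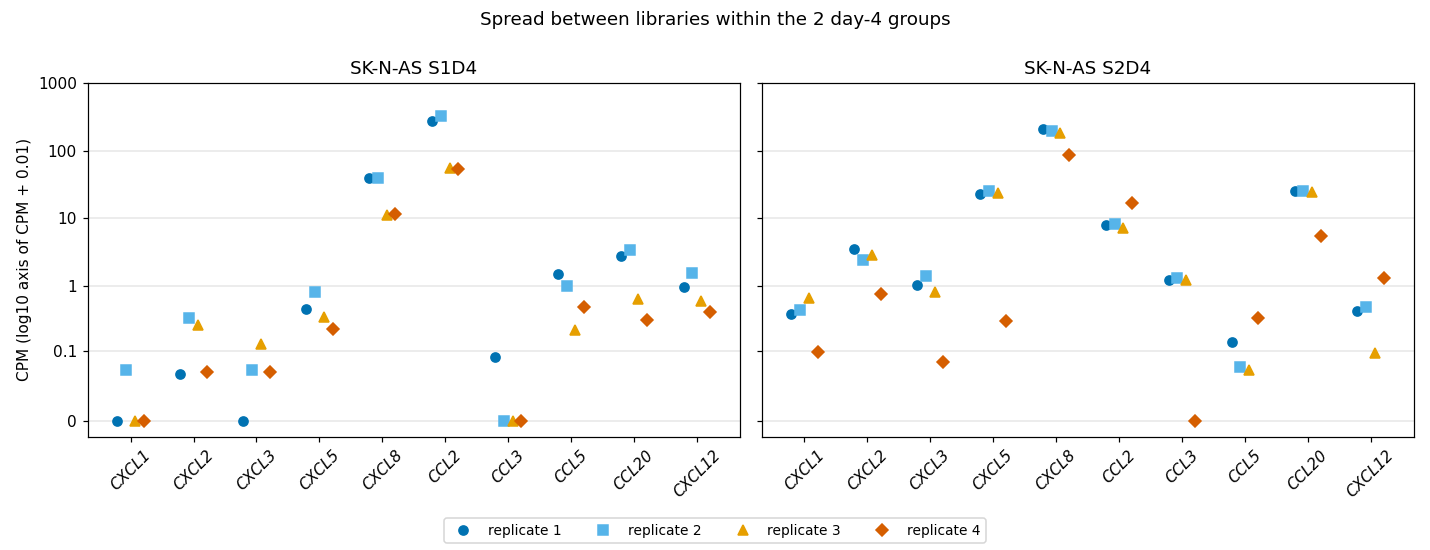
CPM of the 10 genes in the 4 libraries of S1D4 (left) and S2D4 (right), on a log10 axis of CPM + 0.01, coloured by replicate. In S1D4, replicates 1 and 2 lie above 3 and 4 for *CCL2*, *CXCL8* and *CCL20*, and in S2D4 replicate 4 lies below the others for 7 genes and above them for *CCL2*, *CCL5* and *CXCL12*.

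S2D4 replicate 4 was below each other S2D4 library for 7 members and above each for the other 3, the genes that were higher in S1D4 or untreated cells. The ratio of the other 3 libraries to replicate 4 was 82.0 for *CXCL5*, 16.6 for *CXCL3*, 5.03 for *CXCL1*, 4.54 for *CCL20*, 3.92 for *CXCL2* and 2.22 for *CXCL8*. *IL1B* had 25.3 CPM in it against 252 to 279, and *CHGA*, *TH* and *DBH* (dopamine beta-hydroxylase) were 7.19, 28.7 and 9.74 times as high in it as in the others. What set this library apart was not tested. Without it, 8 members passed against untreated cells, as with it, and 10 against S1D4, where *CCL5* (-3.21 log2, adjusted p = 0.00156, edgeR) and *CXCL12* (-1.40, adjusted p = 0.0248, edgeR) joined.

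*CXCL12*, the homeostatic chemokine, was the only member that was lower in every treated group of both lines. Untreated SK-N-AS had 5.29, 5.33, 4.10 and 3.60 CPM and S1D4 0.964, 1.55, 0.591 and 0.399. S2D4 had 0.419, 0.488, 0.0941 and 1.30 CPM, and S2D30 0.0877, 0.205, 0.227 and 0.130, which is 2 to 5 counts per library. Untreated cells did not overlap any treated group. *CXCL12* fell by 2.41 ± 0.48 log2 in S1D4 (adjusted p = 0.000786, edgeR) and by 2.96 ± 0.50 in S2D4 against untreated cells (adjusted p = 6.755e-05, edgeR), or -3.81 without S2D4 replicate 4. It did not pass between S1D4 and S2D4 (-0.54, adjusted p = 0.390, edgeR).

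From S2D4 to S2D30 *CXCL12* fell by 1.87 ± 0.64 log2 (adjusted p = 0.0220, edgeR), with overlapping libraries. This call was lost without S2D4 replicate 4 (-1.02, adjusted p = 0.182), without S2D30 replicate 1 (-1.66, adjusted p = 0.0642) and without S2D30 replicate 4 (-1.78, adjusted p = 0.0552, all edgeR).

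The receptors of CXCL12 fell by S2D4 and then rose, while *CXCL12* stayed low. *CXCR4* stood at 4.20 to 4.77 CPM before treatment. It had 4.43 to 11.6 CPM in S1D4 and 0.760 to 1.49 in S2D4, then 53.5, 45.7, 45.9 and 52.3 in S2D30. It fell by 2.86 ± 0.29 log2 from S1D4 to S2D4 (adjusted p = 5.32e-07, edgeR) and rose by 5.54 ± 0.30 from S2D4 to S2D30 (adjusted p = 5.56e-10, edgeR). *ACKR3*, the scavenging receptor, had 12.9 to 23.0 CPM in untreated cells, 3.12 to 7.63 in S1D4, 1.25 to 1.86 in S2D4 and 3.91 to 7.42 in S2D30. *ACKR3* fell by 1.81 ± 0.29 log2 in S1D4 (adjusted p = 0.0001295, edgeR) and a further 1.63 ± 0.32 to S2D4 (adjusted p = 0.000367, edgeR), then rose by 1.71 ± 0.32 to S2D30 (adjusted p = 0.000266, edgeR). S2D30 was thus the SK-N-AS group with the lowest *CXCL12* and the highest *CXCR4*.

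**Figure D4:**
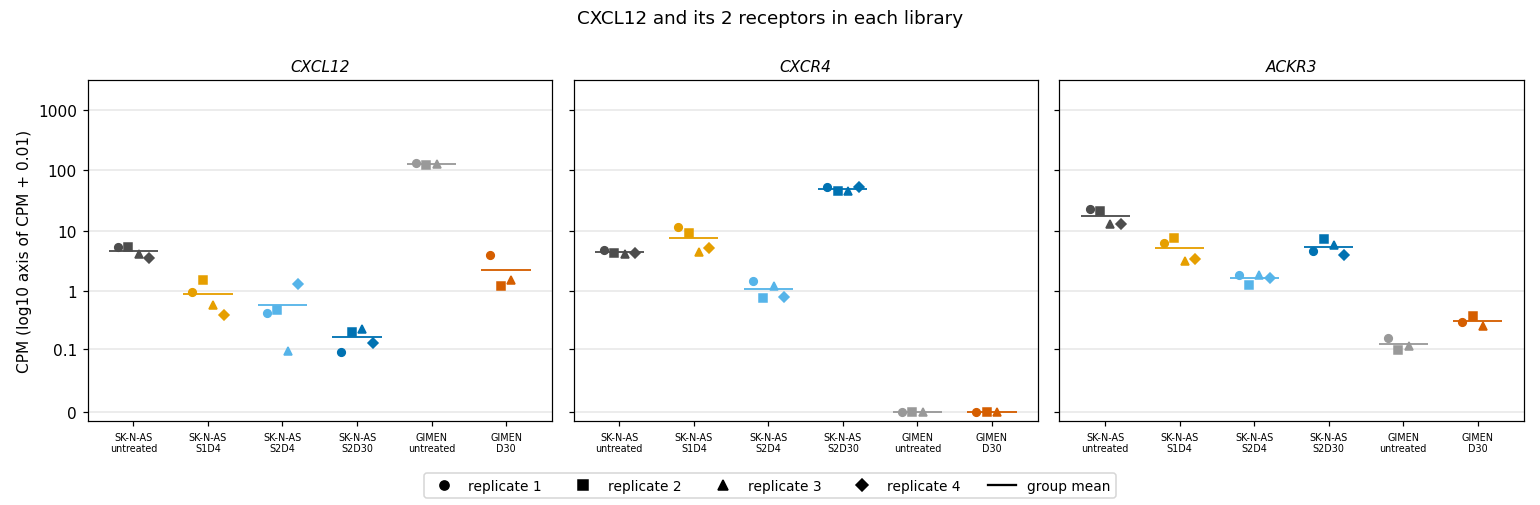
CPM of *CXCL12* and of its receptors *CXCR4* and *ACKR3* in each library of the 6 groups, on a log10 axis of CPM + 0.01, with symbols for replicates and lines for group means. *CXCR4* is at 45.7 to 53.5 CPM in S2D30, where *CXCL12* is at 0.0877 to 0.227, and has no count in GIMEN, where untreated *CXCL12* is at 125 to 134.

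Counted over the members, S1D4 against untreated cells gave 3 called higher (*CCL2*, *CCL20*, *CXCL8*) and 1 lower (*CXCL12*) of 9 tested, at an adjusted p under 0.05. Of all 15810 genes, 17.6% were called higher and 22.4% lower. S2D4 against untreated cells gave 7 higher (*CCL3*, *CCL20* and the 5 ELR genes) and 1 lower (*CXCL12*), beside 30.9% and 32.2% of all genes. S2D4 against S1D4 gave those 7 genes higher and *CCL2* lower, beside 28.3% and 26.8%. The first and second comparison share the untreated libraries, and the second also shares the S2D4 libraries with the comparison after it. S2D30 against S2D4 was tested for 7 members and gave the 5 ELR genes higher and *CXCL12* lower, beside 24.4% and 26.9%. *CCL3*, *CXCL1*, *CXCL2* and *CXCL3* passed the filter only through S2D4 and S2D30, where they were high. *CXCL5* and *CCL20* reached its cutoff in 2 and 3 S1D4 libraries and in no untreated one, so they too needed S2D4 and S2D30. *CXCL8* reached the cutoff in 1 of 4 untreated libraries and in every treated SK-N-AS library. The untreated and S2D30 libraries also helped choose *CCL3* and *CCL20*. For these reasons the counts lend no support of their own.

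The 30-day state of SK-N-AS is a description, since this contrast chose the genes. All S2D30 libraries lay above all untreated ones for *CCL3*, *CCL20*, *CXCL1*, *CXCL2*, *CXCL3*, *CXCL5* and *CXCL8*, and below them for *CCL2* and *CXCL12*, as did 33.3% and 33.1% of all genes. By summed counts the ratio of S2D30 to untreated cells was 14300 for *CCL20* (counting interval 6960 to 35700), 6700 for *CXCL8* (4750 to 9800), 2590 for *CXCL5* (1110 to 7990) and 1360 for *CXCL2* (529 to 4980). It was 182 for *CXCL3* (61.9 to 886) and 136 for *CXCL1* (46.1 to 664). *CCL3* was at least 855-fold higher, with 3 counts per untreated library as the floor. *CXCL12* was 28.8-fold lower (17 to 53.1) and *CCL2* 4.18-fold lower (3.72 to 4.71). *CCL5* had 22 counts before and 23 after.

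The 10 genes together took 0.00116% to 0.00339% of all counts in the untreated SK-N-AS libraries, 0.00744% to 0.0416% in S1D4, 0.0101% to 0.0264% in S2D4 and 0.271% to 0.315% in S2D30. *CXCL8* and *CCL20* made up 90.4% to 91.9% of the members' counts in S2D30, against 0.587% to 2.68% in untreated cells. Per kilobase of exon, the S2D30 levels were 807 ± 67.0 CPM/kb for *CXCL8* and 539 ± 47.8 for *CCL20* (SD, n = 4). *CCL3* (63.0 ± 9.86), *CXCL5* (43.8 ± 5.40) and *CXCL2* (31.0 ± 4.72) followed. *CXCL1* (2.70), *CXCL3* (2.12), *CCL2* (1.89), *CCL5* (0.173) and *CXCL12* (0.0267) were lower still. The lengths are the merged exons of GENCODE 29, so the order between genes depends on that annotation.

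GIMEN after 30 days had a smaller set of the same genes. *CXCL8* had 0, 0.393 and 0.113 CPM in untreated GIMEN and 6.11, 5.27 and 6.94 in D30. *CCL20* had 1 count in untreated GIMEN and 1.17, 0.698 and 1.61 CPM in D30. *CXCL12* had 134, 125 and 129 CPM untreated, the highest of the members in that group, and 3.99, 1.21 and 1.54 in D30. In these 3 genes the D30 and untreated libraries do not overlap. By summed counts *CXCL8* rose 35.0-fold (counting interval 18.8 to 73.8, adjusted p = 2.30e-06, edgeR) and *CCL20* 66.5-fold (11.5 to 2670, adjusted p = 6.38e-05, edgeR). *CXCL12* fell by 5.84 ± 0.21 log2 (adjusted p = 8.365e-10, edgeR). *CXCL8* and *CCL20* passed the filter only through D30, where they were high, so their calls are no support of their own. These were the 3 members tested, beside 35.5% of 13517 genes called higher and 36% called lower.

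Single libraries moved the sizes in GIMEN. The log2 change of *CCL20* was 7.32 without untreated replicate 1 against 5.55, that of *CXCL8* 6.61 without untreated replicate 2 against 5.05, and that of *CXCL12* -6.57 without D30 replicate 1.

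Below the GIMEN filter, *CCL3* had no count in untreated cells and 22, 9 and 6 counts in D30, at least 4.77-fold higher. *CCL2* had 3, 1 and 2 counts untreated and 14, 8 and 13 in D30, a ratio of 6.93 (counting interval 2.88 to 20.2), and *CXCL2* 1, 2 and 0 against 14, 3 and 7, a ratio of 9.50 (2.89 to 49.3). These 3 genes passed when no filter was applied (adjusted p = 2.463e-06, 0.002165 and 0.007475, edgeR). *CCL3L3* had 23 to 54 counts in GIMEN D30, above *CCL3* itself. *CXCL1* and *CXCL3* had no count in any GIMEN library, *CXCL5* at most 1, and *CCL5* 2 to 6 counts in both groups. A count of 0 allows up to 3 counts per library, from counting error alone.

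Side by side, 5 members had non-overlapping libraries in the same direction in both lines over 30 days: *CCL3*, *CCL20*, *CXCL2* and *CXCL8* higher and *CXCL12* lower. Of the 13517 genes that passed the filter in GIMEN, 38.6% had non-overlapping libraries that were higher and 36.8% lower. *CCL3* and *CXCL2* are not among those genes. In SK-N-AS the shares were 33.3% and 33.1%. The share of all genes with the same direction in both lines was not computed, and the SK-N-AS change chose the genes. The count of 5 is therefore a description. *CCL2* was lower in S2D30 than in untreated SK-N-AS (3.75 ± 1.90 against 15.2 ± 8.16 CPM, SD, n = 4) and higher in GIMEN D30 than in untreated GIMEN (0.722 ± 0.185 against 0.106 ± 0.0532, SD, n = 3). Dose, medium, serum and the PP121 stage before bufalin differed between the lines, and the difference of the changes was not tested. The treated levels were far apart. *CXCL8* was at 1670 to 2020 CPM in S2D30 and at 5.27 to 6.94 in GIMEN D30, and *CCL20* at 769 to 955 and at 0.698 to 1.61.

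**Figure D5:**
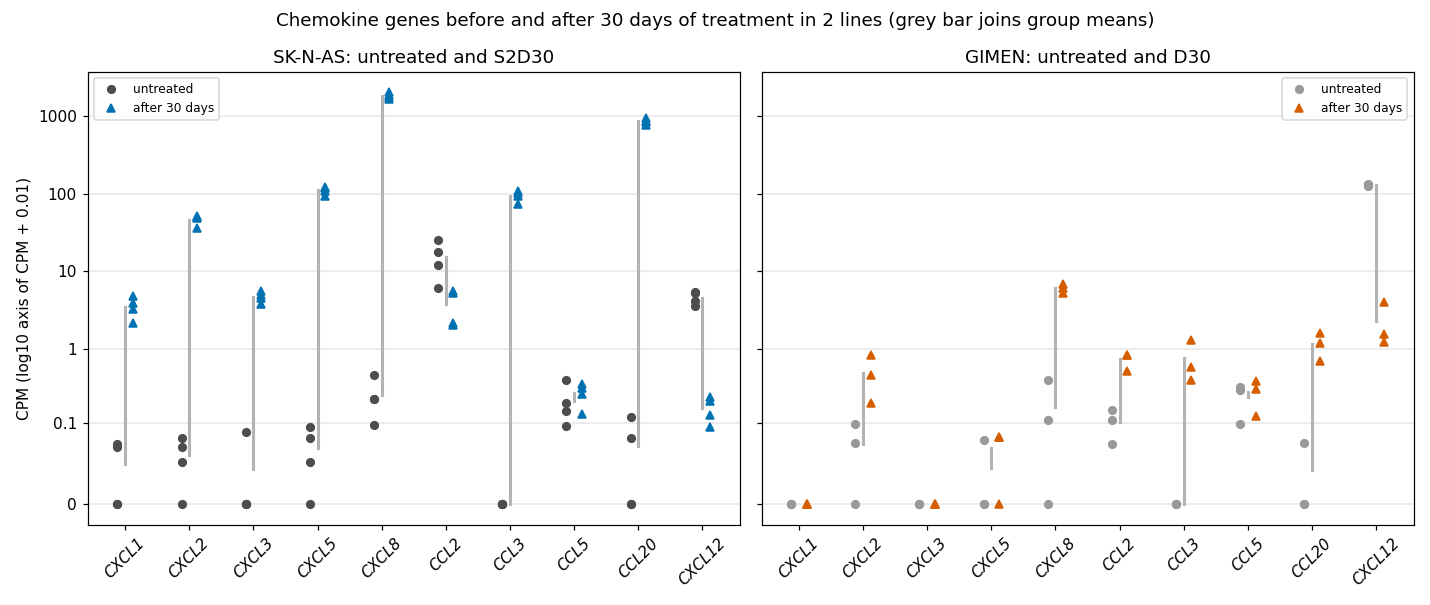
CPM of the 10 genes in untreated cells (circles) and after 30 days (triangles) in SK-N-AS (left) and GIMEN (right), on a log10 axis of CPM + 0.01. Each symbol is a library and the grey bar joins the group means. In SK-N-AS 7 genes are higher and *CCL2* and *CXCL12* lower, and in GIMEN *CXCL12* goes from 125 to 134 CPM down to 1.21 to 3.99.

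Before treatment the lines differed in 2 members, of 10 tested. *CCL2* was higher in SK-N-AS by 7.12 ± 1.11 log2 (adjusted p = 7.12e-06, edgeR) and *CXCL12* lower by a log2 difference of -4.82 ± 0.35 (adjusted p = 5.61e-11, edgeR). Of 16610 genes, 38.1% were called higher and 33.1% lower in SK-N-AS. The other 8 members were at or below 0.393 CPM in GIMEN and at or below 0.445 CPM in SK-N-AS, and differences among so few counts were not detectable at this depth. *CXCR4* had 88 to 193 counts in untreated SK-N-AS libraries and none in GIMEN. *ACKR3* was higher in SK-N-AS by 7.11 ± 0.47 log2 (adjusted p = 1.17e-11, edgeR). GIMEN had no count of the adrenergic markers *HAND1* and *TH*, while 10 mesenchymal markers summed in it to 46700 to 48500 CPM against 1520 to 2110 in untreated SK-N-AS. All 10 adrenergic markers had counts in untreated SK-N-AS, where they summed to 4540 to 9920 CPM against 451 to 474 in untreated GIMEN.

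Across groups, the order of the levels was S2D30, S2D4, then the rest for the 5 ELR genes, *CCL3* and *CCL20*. S2D30 was separated from S2D4 in all 7. S2D4 did not separate from the next group for *CXCL2*, *CXCL3* and *CXCL5*, in each case through replicate 4. For *CCL3*, S2D4 (0 to 1.30 CPM) overlapped GIMEN D30 (0.385 to 1.29). For *CCL20*, S1D4 (0.310 to 3.44 CPM) overlapped GIMEN D30 (0.698 to 1.61). For *CCL5* every neighbouring pair of groups overlapped. For *CXCL12* untreated GIMEN stood above all others, and untreated SK-N-AS overlapped GIMEN D30.

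The other chemokine ligands were largely silent. Of 33 further ligand genes, 7 had no count in any of the 22 libraries, 17 had at most 3 counts in every library and 7 reached 1 CPM in some library. In SK-N-AS 7 were tested, of which 2 rose and none fell in S1D4 against untreated cells (17.6% and 22.4% of all genes). From S1D4 to S2D4 1 rose and 2 fell (28.3% and 26.8%), with a median log2 change of -0.14. From S2D4 to S2D30 4 rose and none fell (24.4% and 26.9%), with a median of 1.48 against -0.02 for all genes. The 4 ligands with the highest mean over all libraries were *CX3CL1*, *CXCL16*, *CXCL14* and *CCL27*. *CXCL14*, a chemokine of epithelia, had 0 to 0.0989 CPM in untreated cells and 4.34, 3.07, 2.72 and 3.61 in S2D30. It rose by 2.92 ± 0.52 log2 from S2D4 (adjusted p = 0.000200, edgeR). *CXCL14* had only 2 to 18 counts in S2D4 and needed S2D30, where it was high, to pass the filter. The same holds for another of the 4 ligands that rose at this step. Neither the call nor that count is support of its own. *CX3CL1*, fractalkine, fell by 2.87 ± 0.62 log2 from S1D4 to S2D4 (adjusted p = 0.000921, edgeR) and rose by 1.60 ± 0.61 to S2D30 (adjusted p = 0.0385, edgeR). *CXCL16* and *CCL27* did not pass at either step.

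Receptors for the ligands that were high were near 0 in the same cells. In S2D30 *CXCR2* had 2 to 5 counts per library, *CXCR1* at most 1, *CCR6* 1 to 4 and *CCR1* 0 to 4. *CCR1*, a receptor of CCL3, had 15 to 41 counts in GIMEN D30 and none in untreated GIMEN, at least 9.71-fold higher. Of 22 receptors, 6 reached 1 CPM in some library and 5 were tested in SK-N-AS. Of these, 2 rose and 1 fell in S1D4 (17.6% and 22.4% of all genes), none rose and 2 fell from S1D4 to S2D4 (28.3% and 26.8%), and 2 rose and none fell from S2D4 to S2D30 (24.4% and 26.9%). The 4 receptors with the highest mean were *CXCR4*, *CCR10*, *ACKR3* and *CCR7*. *CCR10* had 2.91 to 14.7 CPM over SK-N-AS and rose by 0.86 ± 0.29 log2 in S1D4 (adjusted p = 0.0238, edgeR). *CCR7*, a lymph node homing receptor, had 3 to 4.81 CPM in untreated GIMEN and rose by 0.62 ± 0.19 log2 in D30 (adjusted p = 0.0132, edgeR).

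Genes of the NF-kappa-B system, which controls many of the members, were called higher more often than lower in S1D4 and S2D4 against untreated cells. This was also so from S2D4 to S2D30, but not from S1D4 to S2D4. Of 16 factors and inhibitors, all tested, 12 rose and none fell in S1D4 against untreated cells (17.6% and 22.4% of all genes). The median log2 change was 0.63 against -0.01 for all genes. In S2D4 against untreated cells 11 rose and none fell (30.9% and 32.2%), with a median of 0.65. Between S1D4 and S2D4 4 rose and 5 fell (28.3% and 26.8%), with a median of -0.08. From S2D4 to S2D30 9 rose and none fell (24.4% and 26.9%). *NFKB2*, the non-canonical subunit, was at 37.1 ± 3.77 CPM untreated, 134 ± 50.6 in S1D4, 78.7 ± 18.6 in S2D4 and 327 ± 11.0 in S2D30 (SD, n = 4). It rose by 1.83 ± 0.21 log2 in S1D4 and by 2.05 ± 0.21 from S2D4 to S2D30 (adjusted p = 6.47e-06 and 7.50e-07, edgeR). *NFKBIA*, the inhibitor that is itself an NF-kappa-B target, rose by 1.11 ± 0.32 log2 in S1D4, fell by 1.12 ± 0.32 to S2D4 and rose by 1.58 ± 0.32 to S2D30 (adjusted p = 0.01095, 0.00720 and 0.000618, edgeR). *RELA* rose by 0.32 ± 0.08 log2 in S1D4 and again by 0.32 ± 0.08 to S2D30 (adjusted p = 0.00612 and 0.004335, edgeR). *TNIP1*, an inhibitor, rose by 0.61 ± 0.13 log2 in S1D4 and fell by 0.66 ± 0.13 to S2D4 (adjusted p = 0.001055 and 0.0003235, edgeR). It then rose by 0.86 ± 0.13 to S2D30 (adjusted p = 2.74e-05, edgeR). In GIMEN 9 of the 16 rose and 2 fell, with a median of 0.63 against 0.02 for all genes, where 35.5% of all genes were higher and 36% lower.

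Of 16 cytokine genes, 14 were tested in SK-N-AS. Against untreated cells 10 rose and none fell in S1D4 (17.6% and 22.4% of all genes). The median log2 change was 3.12 against -0.01 for all genes. From S1D4 to S2D4 7 rose and 2 fell (28.3% and 26.8%), and from S2D4 to S2D30 8 rose and 2 fell (24.4% and 26.9%). *IL1B*, interleukin 1-beta, an inducer of chemokines, was at 0.333 ± 0.263 CPM untreated, 14.7 ± 2.39 in S1D4, 203 ± 119 in S2D4 and 789 ± 127 in S2D30 (SD, n = 4). It rose by 3.78 ± 0.51 log2 from S1D4 to S2D4 and by 1.96 ± 0.46 to S2D30 (adjusted p = 1.07e-05 and 0.002015, edgeR). *LIF*, leukaemia inhibitory factor, rose by 3.47 ± 0.24 and 1.36 ± 0.22 log2 at these steps (adjusted p = 9.19e-09 and 9.02e-05, edgeR). *IL11* rose by 3.46 ± 0.20 log2 to S2D4 and fell by 1.06 ± 0.18 to S2D30 (adjusted p = 1.04e-09 and 0.000133, edgeR). *CSF1*, the macrophage growth factor, rose by 1.40 ± 0.19 log2 from S2D4 to S2D30 (adjusted p = 1.675e-05, edgeR). In GIMEN 4 of 7 tested cytokines rose and 1 fell (35.5% and 36% of all genes).

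Of 12 interferon response genes, 11 were tested, and 1 rose and 5 fell in S1D4 against untreated cells (17.6% and 22.4% of all genes). From S2D4 to S2D30 1 rose and 1 fell (24.4% and 26.9%). In S2D30 against untreated cells, a description, their median log2 change was -0.44 against -0.03 for all genes. Of 10 adrenergic markers, 8 fell and none rose from S2D4 to S2D30, and of 10 mesenchymal markers 4 rose and 4 fell. Of all genes 24.4% rose and 26.9% fell at this step. Of the white blood cell genes 5 were tested, and 2 rose and 1, *PTPRC*, fell at that step (-4.80 ± 0.19 log2, adjusted p = 3.04e-11, edgeR). Their part in the chemokine values was not tested.

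The genes whose log2 CPM ran most like 3 members were ranked over all 22 libraries, which share lines and groups, among 11626 genes reaching a group mean of 10 CPM. For *CCL20* the 5 nearest were *NAMPT* (Pearson r = 0.987), *ERP29* (0.969), *CXCL2* (0.969), *SETDB2* (0.968) and *SBSN* (0.967). For *CXCL8* they were *IL1B* (0.970), *CTSO* (0.968), *SETDB2* (0.966), *ACSM4* (0.964) and *ZFAND2A* (0.963). For *CXCL12* they were *CNN3* (0.98), *TPM1* (0.979), *RHPN2* (0.966), *TPI1* (0.966) and *MGME1* (0.962). *NAMPT*, an enzyme of NAD synthesis, reached 706 CPM on average in S2D30.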

How the data were processed

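RNA-seq counts per gene were deposited for 22 libraries as one table of 35237 gene symbols. Per the labels' protocols, total RNA was extracted with a column kit and DNase and sequenced as paired reads. The aligner, genome build, annotation and strand setting are not given in the sources used here, and the deposited counts were used as they stand. Genes with low counts were removed with edgeR's filterByExpr (minimum count 10, minimum total 15) and libraries were scaled by TMM. edgeR 4.0.16 (R 4.3.3) quasi-likelihood tests, with Benjamini-Hochberg adjustment over all genes and a threshold of 0.05, were fitted to 16 SK-N-AS libraries, 6 GIMEN libraries, or all 22 for the comparison of untreated lines. Levels use 1 TMM scaling of all 22 libraries. Ratios of summed counts carry exact 95% intervals for counting error, with a floor of 3 counts. The fitting code was tested on simulated data. DESeq2 1.42.0, other scalings, filters and left-out libraries were tried as alternatives.

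The members and all gene lists were chosen with earlier results of these data known. All 10 members are named. Of other chemokine ligands, receptors, NF-kappa-B genes and cytokines, the 4 with the highest mean CPM are named. The 5 genes most like *CCL20*, *CXCL8* and *CXCL12* were taken among genes with a group mean of at least 10 CPM. Neighbours, gene copies and further receptors were chosen with their values in view.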

Additional observations from a re-analysis of the deposited data

Results flagged for a closer look

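Of 39 combinations of a member and an SK-N-AS group checked for a single library far from the rest, 7 stood out. Chance flags about 1 in 20 groups of normally distributed values, a rate that need not hold for counts near 0. In S2D4, replicate 4 was far above the others for *CCL2* (16.8 CPM) and far below them for *CCL3* (0 CPM), *CCL20* (5.51 CPM) and *CXCL5* (0.292 CPM). The other 3 rest on few counts: *CCL3* in S1D4 replicate 1 (0.0804 CPM), *CXCL1* in S1D4 replicate 2 (0.0471 CPM) and *CXCL3* in untreated replicate 1 (0.0742 CPM). Each was the single library of its group with a count, and such a group is always flagged by this check.

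*CCL2* went opposite ways over 30 days. Its mean was 3.75 CPM in S2D30 against 15.2 in untreated SK-N-AS, and 0.722 CPM in GIMEN D30 against 0.106 in untreated GIMEN, with no overlap of libraries in either line. The difference between the lines was not tested.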

How the results depend on the processing

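Counts of called members depended on which genes were tested. DESeq2 called 7 members instead of 4 in S1D4 against untreated cells, and 6 instead of 3 in GIMEN, as did edgeR without the filter. In a model of the compared groups alone fewer members passed the filter, and 4 instead of 8 were called for S2D4 against untreated cells and 5 instead of 8 for S2D4 against S1D4. Leaving out 1 library gave 4 to 5 members for S1D4, 8 to 8 for S2D4 against untreated cells, 8 to 10 for S2D4 against S1D4, 5 to 6 for S2D30 against S2D4, 3 to 4 for GIMEN, 2 to 2 for the untreated lines, and 9 to 9 non-overlapping members for S2D30 against untreated cells. Of the values of single members under alternatives, 724 kept direction and side of the threshold, 5 newly passed, 5 no longer passed and 5 changed sign. The sign changes were in uncalled values: *CXCL3* in S1D4 within replicates 1 and 2 (-0.962), *CCL5* in S2D4 against untreated cells without untreated replicate 2 (0.1066), *CCL5* between the lines without untreated replicate 4 (0.02198) or GIMEN untreated replicate 1 (0.03534), and *CXCL2* between the lines without GIMEN untreated replicate 2 (0.2637). Over all alternatives that gave an adjusted p, *CCL5* in S2D4, *CCL5* between the lines and *CXCL2* between the lines ran from -1.243 to 0.1066, from -0.7106 to 0.03534 and from -1.065 to 0.2637. The cause was not tested. Ranking by Spearman correlation kept 2 of the 5 genes most like *CCL20*, 3 for *CXCL8* and 2 for *CXCL12*.

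The labels give no pairing. Deviations of same-numbered S1D4 and untreated libraries correlated at 0.274, 0.266, 0.044 and 0.293, against at most 0.187, 0.155, 0.286 and 0.063 with other numbers. Numbers 1, 2 and 4 thus correlated best with their own number and 3 did not, so the numbers were not used as pairs. With a replicate block, 4, 8, 8, 7, 3 and 2 members were called in the 6 tested comparisons, and *CCL2* from S2D4 to S2D30 joined (-1.506, adjusted p = 0.04867, edgeR). Chosen after seeing the data, a term for replicates 3 and 4 gave 4 members in S1D4, replicates 1 and 2 alone 5, and replicates 3 and 4 alone 3. Leaving out S2D4 replicate 4 with S1D4 replicates 1 and 2 gave 8 for S2D4 against S1D4. Few counts limit *CCL5* in both lines and all members but *CXCL12* in untreated GIMEN.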
